A study of Mus musculus with 20 samples.

Results

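Of the 31093 gene names on the array, 8 genes of the red cell membrane were followed in mouse whole blood: Slc4a1, Epb4.2, Ank1, Spnb1, Rhag, Rhd, Kel and Aqp1. They were taken by name, as every non-control probe annotated to one of them, which gave 9 of 39429 probes, since Epb4.2 had a second probe and Spnb1 was found under its newer symbol, Sptb. The study compared young adult male wild-type (WT) C57BL/6 mice with littermates labelled Il10-/- (B6.129P2-Il10tm1Cgn/J), which carry a germline knock-out of the anti-inflammatory cytokine interleukin 10 in every cell and serve as a model of inflammatory bowel disease. Each genotype was exposed to whole body X-rays at 7 Gy or to a sham exposure (0 Gy), and blood was drawn 24 h later by cardiac puncture from all animals, with 5 arrays in each of the 4 groups. The blood was stabilized whole and its globin RNA was partly removed, so the RNA came from all blood cells together. The probe of Il10 itself was well above background on all 5 unirradiated and all 5 irradiated arrays labelled Il10-/- and on 0 WT arrays, which is the opposite of the label's direction, and the part of the gene that this probe reads was not compared with the altered part. The groups are therefore named by their labels.

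The red cell membrane is a lipid bilayer held to a spectrin network underneath it. Slc4a1 encodes band 3, the chloride and bicarbonate exchanger, which anchors the membrane to that network through ankyrin (Ank1) and protein 4.2 (Epb4.2), and Spnb1 encodes erythroid beta-spectrin. Rhag and Rhd belong to the Rhesus complex, Kel is a surface metalloprotease and blood group antigen, and Aqp1 is the water channel, which endothelial cells also make. Most of these genes are transcribed in erythroblasts of the marrow, and their RNA in blood is carried mainly by reticulocytes, the youngest circulating red cells, which lose their RNA as they mature.

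The sequence just upstream of the annotated start is shown for the 6 members that a RefSeq table of mouse promoters (GRCm38.p6) held. Epb4.2, Rhag, Rhd and Kel, 4 of these 6, held a match to the GATA motif, taken as AGATAA or AGATAG or TGATAA or TGATAG on either strand, within 250 bases of the start. Slc4a1 and Ank1 are named only. In the lines that follow, which read 5′ to 3′ along the gene's strand, capitals mark the matches.
Epb4.2, chr2:121036878-121037127, minus strand: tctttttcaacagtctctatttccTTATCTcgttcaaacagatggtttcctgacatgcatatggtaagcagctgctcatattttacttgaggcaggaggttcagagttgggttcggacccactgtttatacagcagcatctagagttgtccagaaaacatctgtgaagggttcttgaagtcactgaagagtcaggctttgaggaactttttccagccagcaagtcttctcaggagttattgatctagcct
Rhag, chr17:40810899-40811148, plus strand: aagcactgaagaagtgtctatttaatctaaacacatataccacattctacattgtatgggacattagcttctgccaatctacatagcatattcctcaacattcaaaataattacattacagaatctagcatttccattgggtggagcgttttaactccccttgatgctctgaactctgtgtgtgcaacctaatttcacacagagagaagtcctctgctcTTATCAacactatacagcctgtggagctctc
Rhd, chr4:134864286-134864535, plus strand: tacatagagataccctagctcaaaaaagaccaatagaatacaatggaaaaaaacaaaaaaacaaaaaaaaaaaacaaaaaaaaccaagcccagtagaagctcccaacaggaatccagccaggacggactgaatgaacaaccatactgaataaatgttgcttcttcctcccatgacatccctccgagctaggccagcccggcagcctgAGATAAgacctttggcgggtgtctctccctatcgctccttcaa
Kel, chr6:41704326-41704575, minus strand: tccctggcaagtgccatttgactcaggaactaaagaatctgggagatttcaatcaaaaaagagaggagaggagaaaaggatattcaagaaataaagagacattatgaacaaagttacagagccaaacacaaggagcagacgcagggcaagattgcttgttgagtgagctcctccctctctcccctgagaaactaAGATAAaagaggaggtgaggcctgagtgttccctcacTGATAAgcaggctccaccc
Counted from the start along the gene's strand, the match began at position -226 in Epb4.2, -31 in Rhag and -43 in Rhd, and Kel had a pair of matches, at -56 and -19. Spnb1 and Aqp1 held none of these letters in their windows, and 26.5% of all 32851 promoter windows of this length held at least 1. The windows of Spnb1 and Aqp1, with capitals on matches to CCNCNCCC on either strand, a pattern like those read by Krüppel-like factors, were as follows.
Spnb1, chr12:76710548-76710797, minus strand: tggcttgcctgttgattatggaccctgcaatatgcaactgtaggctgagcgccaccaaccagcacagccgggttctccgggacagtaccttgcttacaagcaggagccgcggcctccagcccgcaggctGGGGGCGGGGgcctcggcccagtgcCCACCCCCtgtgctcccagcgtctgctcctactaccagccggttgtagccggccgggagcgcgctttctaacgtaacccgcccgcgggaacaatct
Aqp1, chr6:55336049-55336298, plus strand: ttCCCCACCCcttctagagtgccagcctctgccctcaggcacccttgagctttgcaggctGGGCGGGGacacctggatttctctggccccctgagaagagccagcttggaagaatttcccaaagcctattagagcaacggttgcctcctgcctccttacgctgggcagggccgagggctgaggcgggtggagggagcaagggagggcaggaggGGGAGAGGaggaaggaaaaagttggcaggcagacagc
Each of these windows held 3 matches to CCNCNCCC, 2 of which overlapped in Spnb1, and the windows of the other 4 held 0. That pattern was present in 45.9% of all windows. A match is a description of the letters and says nothing of binding in these cells. The windows were set out with the members' responses known, and Slc4a1 and Ank1 had none to show. No link between a match and a response was tested.

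All 9 probes passed the filters on background and variation, and 18587 probes were tested in all. Values are log2 signals of a 1-colour array minus the median log2 signal of all non-control probes on that array. A difference was called when its limma p was under 0.001 and its Benjamini-Hochberg rate over all tested probes was under 10%. The weakest member, Spnb1, passed as well above background on 13 of 20, the second Epb4.2 probe on 18, Ank1 and Rhag on 19, and the others on all 20. Between 29.9% and 57.8% of the spots were well above background on each array. The lowest share was that of WT 0 Gy replicate 5, whose repeated spots also scattered most. Liver transcripts such as albumin varied widely between arrays. The mean of 9 such genes ran from 0.72 to 2.09 in unirradiated WT blood, from 3.04 to 10.90 in irradiated WT blood, from 2.35 to 9.13 in unirradiated Il10-/- blood and from 1.41 to 9.20 in irradiated Il10-/- blood.

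Radiation lowered most of the membrane genes in WT blood. At 7 Gy, 5 of the 8 members were called lower (Slc4a1, Epb4.2, Ank1, Rhd and Kel), where 2.32% of all tested probes were called lower. By limma 0 were called higher (1, Aqp1, had an unadjusted p under 0.05), against 4.48% of tested probes. The median difference of the 8 was -2.06, against -0.02 over all tested probes. Since whole blood was measured, fewer cells of a type and less RNA per cell cannot be told apart. The study reported that red cell and platelet counts did not change significantly with radiation in either genotype. It gave no count of reticulocytes.

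**Figure D1:**
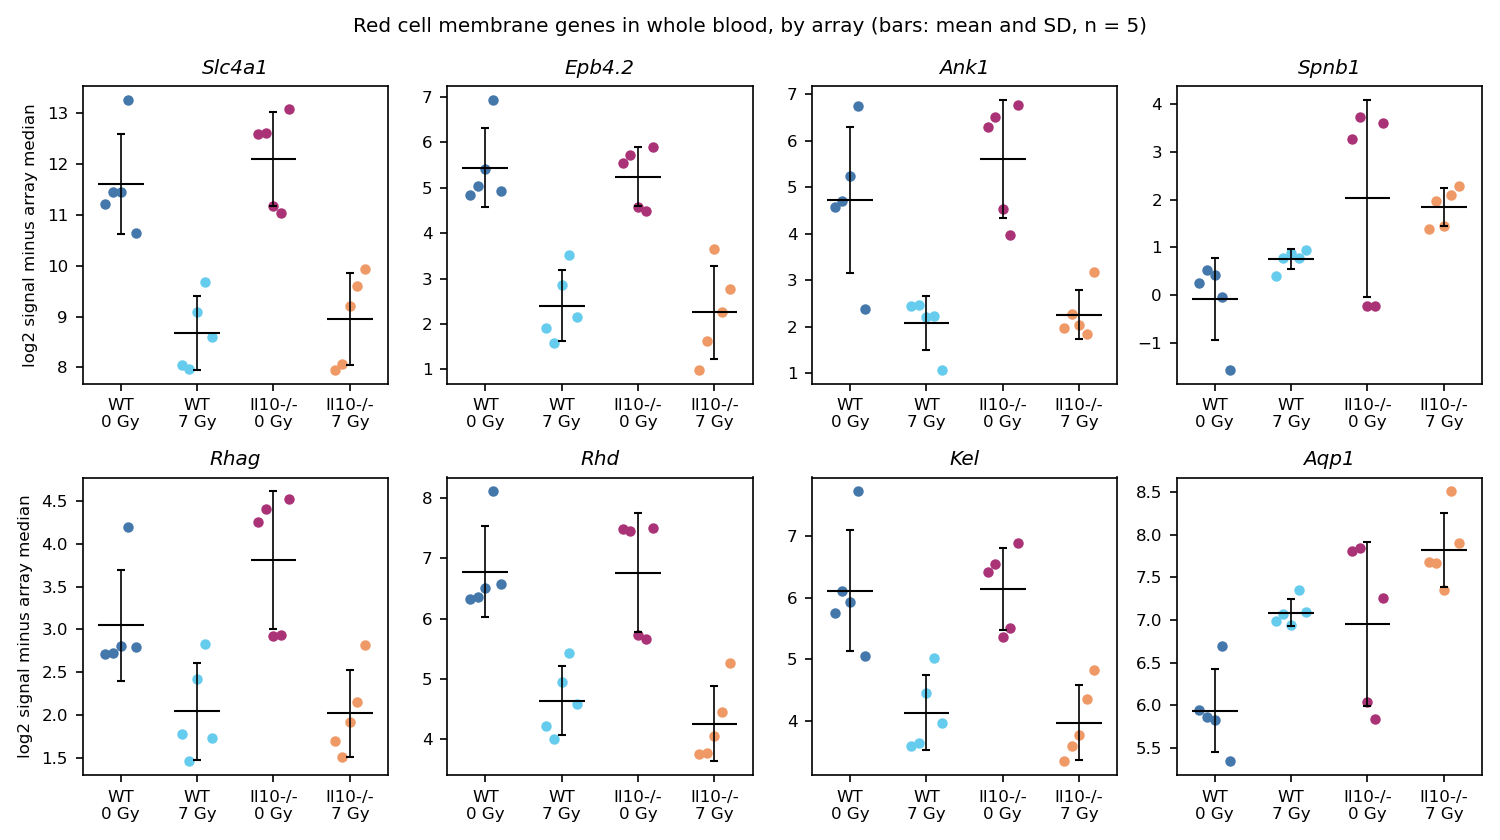
Log2 signal relative to the array median (vertical axis) of the brightest probe of each membrane gene in the 4 groups (horizontal axis); each point is 1 array, lines are group means and bars are SD (n = 5). Slc4a1, Epb4.2, Rhd and Kel sit lower on every irradiated array than on every unirradiated array of the same genotype, while Aqp1 does not fall.

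The anchor proteins of the membrane gave the largest differences. Slc4a1 (probe at mm9 chr11:102210256-102210315, minus strand) read 11.22, 11.45, 11.45, 13.27 and 10.64 on the 5 unirradiated WT arrays. After 7 Gy it read 8.04, 7.96, 9.09, 9.69 and 8.60. The groups did not overlap, as in 4.26% of tested probes that were lower in this comparison. Slc4a1 fell by 2.93 as a log2 difference (SE 0.51, adjusted p = 0.0017), a 7.62-fold difference, and was lower on all 5 slides, by 2.04 to 3.59 where the arrays of 1 slide were compared.

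Epb4.2 (main probe at mm9 chr2:120844440-120844499, minus strand) read 4.84, 5.05, 5.42, 6.95 and 4.94 without radiation and 1.90, 1.57, 2.85, 3.53 and 2.15 at 7 Gy in WT mice. On this probe it fell by 3.04 (SE 0.49, adjusted p = 0.00118), an 8.22-fold difference with no overlap. Its second probe, which lies further towards the start of the gene (mm9 chr2:120849386-120849445), gave -0.89 (SE 0.45, adjusted p = 0.202) and overlapping groups, so the probes disagreed in size. Ank1 (mm9 chr8:24259068-24259127, plus strand) ranged from 2.39 to 6.74 with a median of 4.70 in unirradiated WT blood and from 1.07 to 2.46 with a median of 2.24 after radiation. The lowest unirradiated array, replicate 5, lay inside the irradiated range, and Ank1 fell by 2.64 (SE 0.62, adjusted p = 0.0107).

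Among the surface antigens, Rhd (mm9 chr4:134452018-134452077, plus strand) lay between 6.32 and 8.12 without radiation and between 4.01 and 5.43 at 7 Gy in WT mice. It fell by 2.14 (SE 0.44, adjusted p = 0.00518) with no overlap. Kel (mm9 chr6:41636474-41636533, minus strand) ranged from 5.05 to 7.74 and from 3.59 to 5.02, and fell by 1.99 (SE 0.49, adjusted p = 0.0139). The Kel groups were separated by a margin that was small beside their spread. Rhag (mm9 chr17:40976929-40976988, plus strand), the glycoprotein partner of Rhd, read 2.71, 2.73, 2.80, 4.2 and 2.79 and then 1.77, 1.46, 2.42, 2.83 and 1.73. Its difference of -1.0 (SE 0.42, adjusted p = 0.125) was not called, and 1 irradiated array lay inside the unirradiated range.

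Spnb1 and Aqp1 did not share this direction in WT blood. Aqp1 (mm9 chr6:55298480-55298539, plus strand) read 5.95, 5.87, 5.83, 6.70 and 5.34 without radiation and 6.99, 7.07, 6.94, 7.35 and 7.09 with it. The irradiated arrays were all above the unirradiated ones, as in 11.8% of tested probes that were higher. The difference of 1.15 (SE 0.36, adjusted p = 0.0446, unadjusted p = 0.00612) missed the threshold on the unadjusted p. It was called by the Benjamini-Hochberg rate alone at 5%. Spnb1 (mm9 chr12:77682089-77682148, minus strand) read 0.25, 0.52, 0.42, -0.04 and -1.57 and then 0.40, 0.78, 0.87, 0.78 and 0.94, a difference of 0.84 (SE 0.43, adjusted p = 0.21) with overlapping groups. It was well above background on only 2 of the 5 unirradiated and 3 of the 5 irradiated WT arrays. A fall from so low a level could hardly be read.

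In Il10-/- blood, 6 of the 8 members were called lower after 7 Gy where 5.87% of tested probes were called lower. By limma 0 were called higher (0 had an unadjusted p under 0.05 and a higher value), against 3.29% of tested probes. The 6 were the 5 called in WT blood and Rhag. The median difference of the 8 was -2.34, against -0.10 over all tested probes. Aqp1 and Spnb1 were again not called.

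Slc4a1 read 12.59, 12.61, 11.18, 11.04 and 13.08 in unirradiated Il10-/- blood and 7.95, 8.07, 9.20, 9.61 and 9.93 after radiation. It fell by 3.15 (SE 0.50, adjusted p = 0.00136), and its groups did not overlap, as in 10.9% of tested probes that were lower in this comparison. Within the slides the difference ranged from -4.64 to -1.44. Ank1 gave the largest fall of the 8, from 6.29, 6.50, 4.53, 3.97 and 6.77 to 1.98, 2.27, 2.04, 1.83 and 3.17. Ank1 thus fell by 3.35 (SE 0.53, adjusted p = 0.00132), or 10.2-fold. Epb4.2 fell by 2.99 (SE 0.47, adjusted p = 0.0014) on its main probe, from a range of 4.50 to 5.89 to one of 0.98 to 3.65. Its second probe fell by 1.95 (SE 0.38, adjusted p = 0.00452), so in this genotype both probes were called lower.

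The Rhesus genes and Kel followed in Il10-/- blood. Rhd fell by 2.51 (SE 0.46, adjusted p = 0.00308), from between 5.66 and 7.51 to between 3.76 and 5.26. Kel fell by 2.18 (SE 0.37, adjusted p = 0.00219), from between 5.37 and 6.89 to between 3.33 and 4.82. Neither gene's groups overlapped. Rhag went from 4.26, 4.40, 2.92, 2.94 and 4.53 to 1.70, 1.51, 1.92, 2.15 and 2.81, a difference of -1.79 (SE 0.39, adjusted p = 0.00756). The irradiated arrays were all lower, yet the call on Rhag was lost with the slide as a block, where its adjusted p was 0.0171, since its unadjusted p no longer passed.

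Aqp1 read 7.81, 7.85, 6.03, 5.84 and 7.26 in unirradiated and 7.68, 7.67, 7.36, 8.51 and 7.90 in irradiated Il10-/- blood. Of the 5 unirradiated arrays, 3 lay within or next to the irradiated range and the other two well below it, and the difference of 0.87 (SE 0.42, adjusted p = 0.16) was not called. Spnb1 read 3.28, 3.73, -0.23, -0.23 and 3.60 and then 1.38, 1.97, 1.45, 2.10 and 2.27. Its irradiated values lay between the high and the low unirradiated arrays, and the difference was -0.19 (SE 0.78, adjusted p = 0.879). Within slides it was lower after radiation on 3 and higher on 2.

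**Figure D2:**
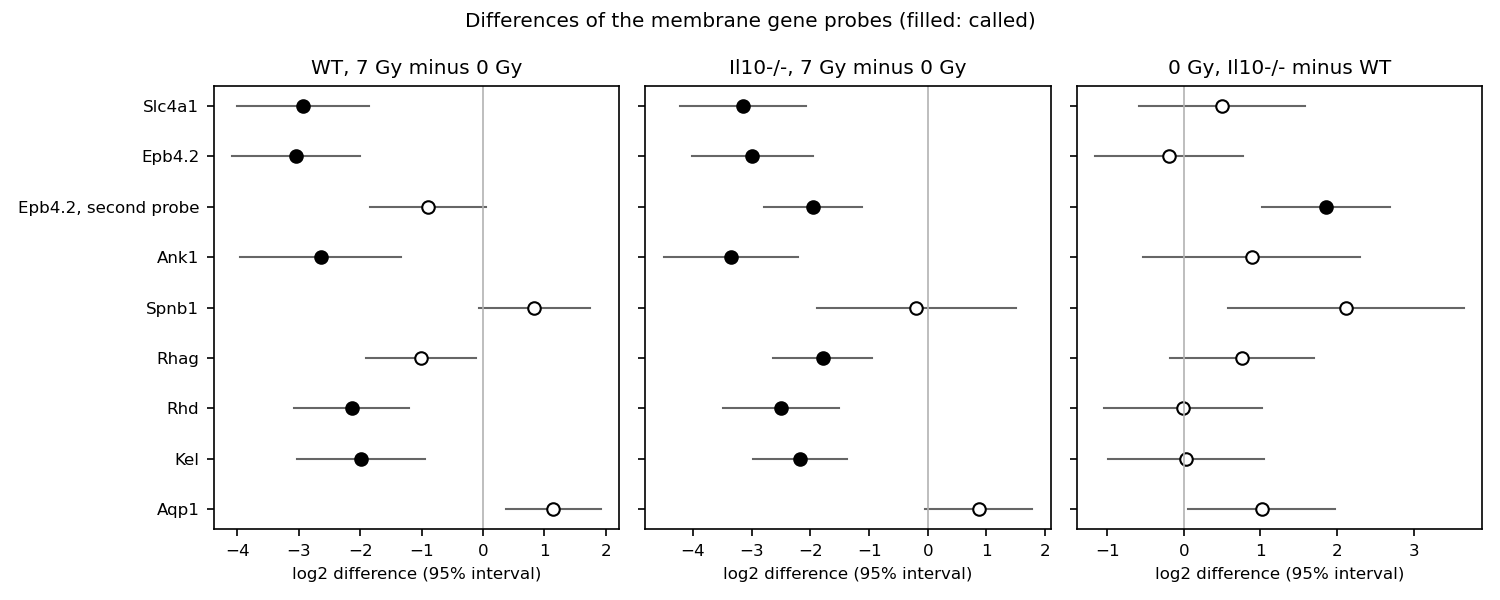
Log2 difference with its 95% interval (horizontal axis) for each of the 9 probes (vertical axis) in 3 comparisons; filled points were called. Slc4a1, Ank1, Rhd, Kel and the main Epb4.2 probe lie between -1.99 and -3.35 in both radiation comparisons, while the unirradiated genotypes differ by a call only on the second Epb4.2 probe.

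The 2 irradiated genotypes and the 2 responses were then compared directly. Of the 8 members, 0 were called between irradiated Il10-/- and irradiated WT blood by limma, where 0.00538% of tested probes were called, and 2 (Spnb1 and Aqp1) had an unadjusted p under 0.05. Spnb1 was higher in irradiated Il10-/- blood on all 5 slides, by 1.08 (SE 0.24, adjusted p = 0.314), and Aqp1 by 0.74 (SE 0.25, adjusted p = 0.391). The groups of these 2 genes did not overlap, as in 2.25% of tested probes that were higher. The test of the difference between the responses in limma called 0 of the 8 members and 0 of all probes (0%), and 0 members had an unadjusted p under 0.05. Its 95% intervals were wide. For Slc4a1 the response of Il10-/- blood minus that of WT blood was -0.22, with an interval from -1.74 to 1.30. For Rhag, called in 1 genotype and not in the other, the value was -0.79 with an interval from -1.97 to 0.39. A difference of that size between the genotypes was thus not detectable with 5 arrays a group.

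Without radiation, limma called 0 of the 8 members' main probes between the genotypes, against 0.845% of tested probes, and 2 had an unadjusted p under 0.05. The median difference of the 8 was 0.63, against 0.36 over all tested probes, a shift that became -0.07 over all probes with scaling to the 75th percentile. Slc4a1 differed by 0.49 (interval -0.59 to 1.58) and Rhd by -0.01. Kel differed by 0.03, which turned to -0.32 with that scaling. The second Epb4.2 probe was the exception. It read 1.98, 2.12, 1.89, 3.00 and 1.32 in WT blood and 4.13, 4.17, 4.00, 3.19 and 4.11 in Il10-/- blood, a difference of 1.86 (SE 0.40, adjusted p = 0.0442) with no overlap, as in 3.98% of tested probes that were higher, while the main probe gave -0.19 (SE 0.46, adjusted p = 0.809). This call was lost after scaling to the 75th percentile (1.51, adjusted p = 0.144), after quantile normalization (1.55, adjusted p = 0.17), after either normexp correction, with replicates 1 and 2 averaged (1.80, adjusted p = 0.167) and without any 1 of Il10-/- 0 Gy replicates 1, 2 and 3 (1.79 to 1.83).

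Spnb1 and Aqp1 had the largest baseline differences among the main probes, at 2.11 (SE 0.73, adjusted p = 0.221) and 1.02 (SE 0.46, adjusted p = 0.298). They split the unirradiated Il10-/- arrays into 3 high (replicates 1, 2 and 5) and 2 low ones (replicates 3 and 4). With the slide as a block, Spnb1 was called at an adjusted p of 0.0164, although it was higher on 3 of the 5 slides only. The same 2 arrays were the lowest of their group in all 8 members. Their liver gene means were 7.98 and 9.13, against 2.35 to 2.46 on the other 3, and their platelet gene means were 7.99 and 7.59, against 9.995 to 10.42. The part of these transcripts in the split was not tested.

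The levels of Aqp1 and Spnb1 followed those of platelet genes more closely than those of the other 6 members, while within the groups they also moved with the other members. Over the 20 arrays, the levels of Slc4a1 correlated with those of Epb4.2, Ank1, Rhag, Rhd and Kel at Pearson's r between 0.92 and 0.98, with Spnb1 at 0.18 and with Aqp1 at -0.26. Aqp1 and Spnb1 correlated with each other at 0.79. By deviations from the group means, Aqp1 correlated with the other 6 at 0.47 to 0.78 and Spnb1 at 0.40 to 0.72, with Epb4.2 the lowest for both. These are descriptions over 20 arrays that share the array medians used for scaling and the 4 groups. With the mean of 8 platelet genes, such as Pf4 and Itga2b, the r was 0.95 for Aqp1 and 0.82 for Spnb1, and between -0.36 and -0.04 for the other 6. After each array's deviation from its group mean was taken, these values were 0.90 and 0.93, and the other 6 had 0.55 to 0.75.

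**Figure D3:**
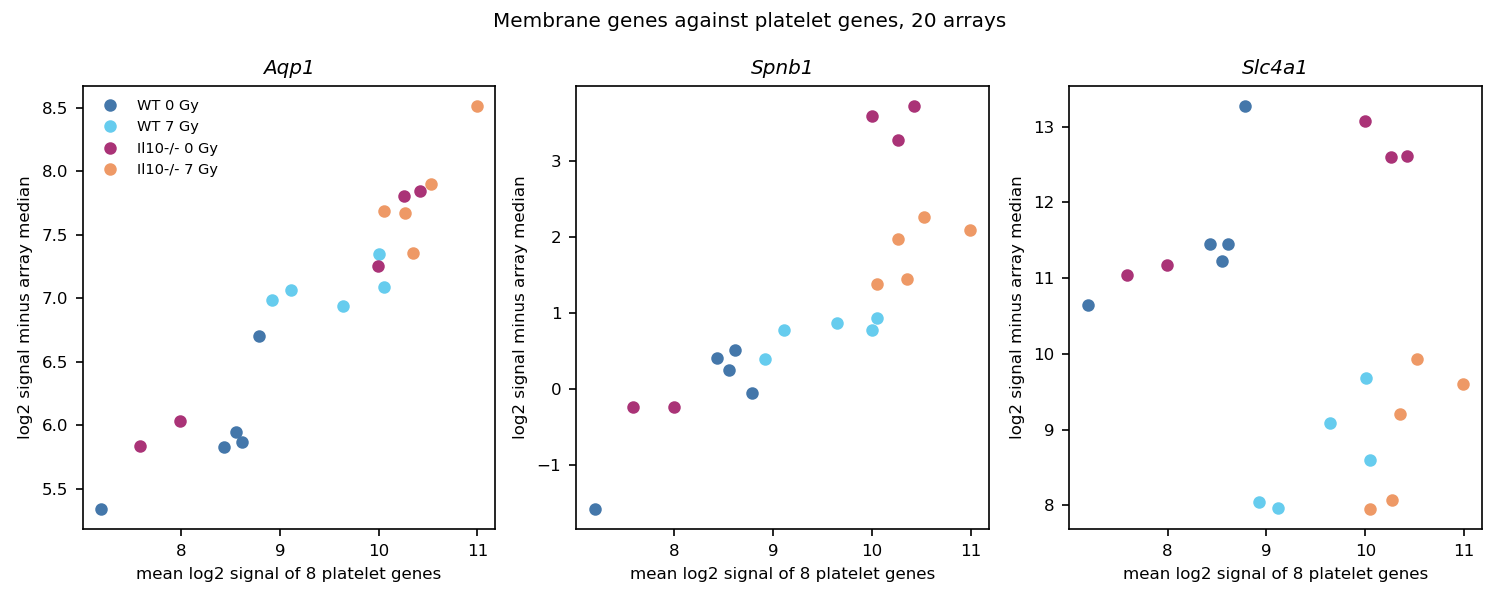
Log2 signal of Aqp1, Spnb1 and Slc4a1 relative to the array median (vertical axes) against the mean log2 signal of 8 platelet genes (horizontal axes), 1 point per array, coloured by group. Aqp1 and Spnb1 rise with the platelet genes across all 20 arrays (r = 0.95 and 0.82), whereas Slc4a1 forms a high unirradiated and a low irradiated band (r = -0.22).

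The platelet list itself had 0 of 8 genes called by limma in either response, with medians of 1.26 in WT and 1.16 in Il10-/- blood, and 6 genes in each had an unadjusted p under 0.05. Aqp1 also followed the mean of 3 genes listed for endothelium (Kdr, Esam and Plvap; r = 0.93), of which 1, Plvap, was called higher in WT blood after 7 Gy (1.82, SE 0.39, adjusted p = 0.00697; median of the 3 genes 1.47) and 0 by limma in Il10-/- blood (2 had an unadjusted p under 0.05). By deviations from the group means, all 8 members followed this mean, at 0.61 to 0.87 for the 6 others, 0.73 for Spnb1 and 0.88 for Aqp1. Kdr, Esam and Plvap were each well above background on all 20 arrays. Of the other genes listed for endothelium, Tek and Emcn were well above background on 0 arrays, Cdh5 on 5 and Tie1 on 6. With the mean of 23 haem synthesis and erythroid genes, the 6 members other than Spnb1 and Aqp1 correlated at 0.85 to 0.95, Spnb1 at 0.35 and Aqp1 at -0.01. By deviations from the group means these were 0.78 to 0.97 for the 6, 0.66 for Spnb1 and 0.76 for Aqp1. The levels of the 6 also correlated with the mean of 6 B cell genes, at 0.65 to 0.85, so a high r of levels was not particular to erythroid genes. By deviations these values were -0.28 to -0.03.

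Most of the other membrane skeleton genes were also called lower. Of 7 further skeleton genes, 5 were called lower in WT blood and 6 in Il10-/- blood, with medians of -2.02 and -2.36. The shares over all tested probes were 2.32% and 5.87%. Add2, beta-adducin, which caps actin at the spectrin junctions, fell by 3.09 (SE 0.49) and 3.48 (SE 0.47). Add1, the alpha-adducin found in many cell types, was not called in either genotype (-0.55 and -0.23).

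Among 9 further surface antigens tested, 1 was called lower in WT and 3 in Il10-/- blood, against 2.32% and 5.87% of all tested probes. Icam4, a red cell adhesion molecule, fell by 2.22 in Il10-/- blood (SE 0.43, adjusted p = 0.00419), and its WT value was -1.04 (adjusted p = 0.116). Ackr1, the Duffy antigen, was also called lower in Il10-/- blood. Of 9 further transporters, 0 were called in WT blood by limma (3 had an unadjusted p under 0.05) and 1 in Il10-/- blood, the potassium channel gene Kcnn4 (-1.28, SE 0.21). With so few genes, these counts do not set the transporters apart from all tested probes.

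Relatives of the members that other tissues use were counted as well. Of 7 tested, 1 was called lower in WT and 2 in Il10-/- blood. Over all tested probes, 2.32% and 5.87% were called lower. The spectrins Sptan1 and Sptbn1 of other cells gave -0.04 and 0.08 in WT blood. Aqp3, a water and glycerol channel of epithelia, fell by 2.06 (SE 0.51, adjusted p = 0.0136) and 2.94 (SE 0.36, adjusted p = 0.00027). It was also called higher in unirradiated Il10-/- than in unirradiated WT blood, by 2.49. The second call in Il10-/- blood was Slc4a7, a bicarbonate transporter.

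Haem and erythroid genes split. Of 23, 6 were called lower and 2 higher in WT blood, and 8 lower and 1 higher in Il10-/- blood. Over all tested probes, 2.32% were called lower and 4.48% higher in WT blood, and 5.87% and 3.29% in Il10-/- blood. Slc25a37, mitoferrin, which carries iron into mitochondria, fell by 3.25 (SE 0.48) in WT and by 2.46 (SE 0.46) in Il10-/- blood. Alas2, the first enzyme of haem synthesis in red cells, was not called (-0.42 and 0.05), and 0 of 5 globin probes were called by limma, with values between -0.36 and 0.38 and 0 unadjusted p under 0.05. The globins were measured after depletion of their RNA, so their levels partly reflect that step. Gfi1b, a transcription factor of the erythroid and megakaryocyte lineages, rose by 1.98 (SE 0.43) and 1.76 (SE 0.31), and Tal1 rose by 1.73 (SE 0.40) in WT blood.

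**Figure D4:**
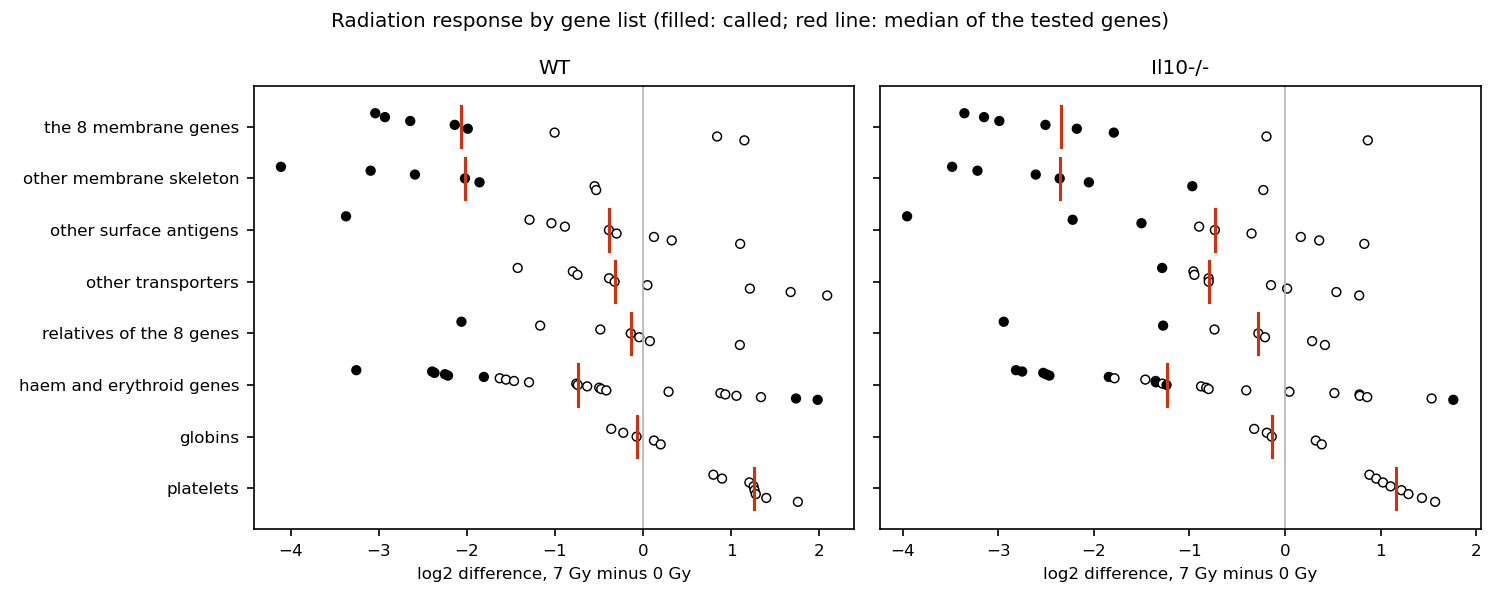
Log2 difference between 7 Gy and 0 Gy (horizontal axis) of each tested gene in 8 lists (vertical axis), for WT (left) and Il10-/- blood (right); filled points were called and red lines are list medians. The 8 membrane genes and the other skeleton genes have medians between -2.02 and -2.36, globins lie within 0.4 of 0, and platelet genes lie above 0 without a call.

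The genes whose levels most resembled the mean profile of the 8 members over the 20 arrays were Ranbp10, Endod1 and Nipa1, each with r = 0.98, among 15741 genes compared. Of the 10 most alike, 4 were called lower in WT blood, among them E2f2, a cell cycle factor (-2.54). Over all tested probes the share was 2.32%. The member profile itself fell at 7 Gy, so likeness of levels selects genes that fall, and this count is no separate result. By deviations from the group means, Fbxo9, Endod1 and Nipa1 were the most alike (r = 0.98, 0.98 and 0.97). A high r was common, as 701 genes had r above 0.8.

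Levels of several members ran against the liver signal. Over the 20 arrays the r with the liver mean was -0.75 for Epb4.2, -0.70 for Rhd, -0.68 for Slc4a1, -0.65 for Kel, -0.60 for Rhag, -0.50 for Ank1, -0.07 for Spnb1 and 0.24 for Aqp1. By deviations from the group means it lay between -0.75 and -0.24 for the 8, and was weakest for Ank1, whose highest irradiated WT values (2.45 and 2.46) were on replicates 1 and 2, the arrays with the most liver signal. Irradiated WT replicate 4, with a liver mean of 3.04 and a Slc4a1 value of 9.69, and irradiated Il10-/- replicate 3, with a liver mean of 1.41 and a Slc4a1 value of 9.20, were the irradiated arrays with the least liver signal. Both Slc4a1 values were below every unirradiated array, of which the lowest read 10.64. In WT blood, however, the liver means of the unirradiated arrays (0.72 to 2.09) all lay below those of the irradiated arrays (3.04 to 10.90). Dose and liver signal therefore cannot be told apart in WT blood. On irradiated WT replicate 4, Rhag read 2.83, inside the unirradiated WT range, which began at 2.71. Kel read 5.02 there, just under the lowest unirradiated WT value of 5.05. For Slc4a1, unirradiated Il10-/- replicate 4, with a liver mean of 9.13, read 11.04 and was above all irradiated arrays. Heart muscle transcripts also varied, from 0.43 to 4.1 without and 1.15 to 8.43 with radiation as the mean of 6 genes. The part of either in the falls was not tested.

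**Figure D5:**
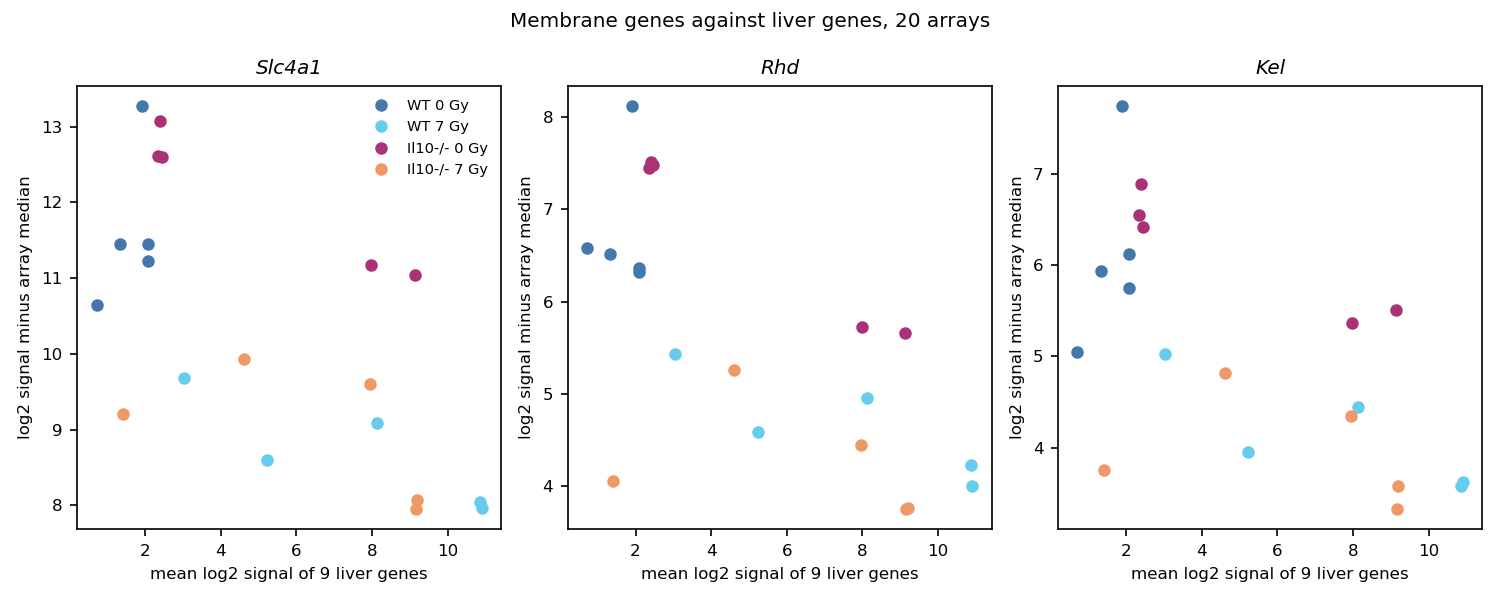
Log2 signal of Slc4a1, Rhd and Kel relative to the array median (vertical axes) against the mean log2 signal of 9 liver genes (horizontal axes), 1 point per array, coloured by group. Irradiated Il10-/- replicate 3, at a liver mean of 1.41, has a Slc4a1 value of 9.20, below all unirradiated arrays. In WT blood every irradiated array has a higher liver mean than every unirradiated array.

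The calls did not rest equally on all settings. With background correction by normexp, 0 of the 7 members that passed the filters (all but Spnb1) were called in either response. Followed by quantile normalization, 3 of 7 were called lower in WT and 5 in Il10-/- blood. Replicates 1 and 2 of every group differed by less than any other pair (robust SD 0.18 to 0.27, against 0.29 to 1.26), though by more than repeated spots (0.12 to 0.14). The labels do not say whether they came from separate animals, and if each pair were 1 animal, n would be 4 and not 5 in each group. Averaged as 1 sample, 3 members were called in WT blood (Slc4a1, Epb4.2 and Rhd) and 4 in Il10-/- blood (Rhag and Rhd lost). When 1 array was left out, there were 3 to 5 calls in WT blood, with Ank1 and Kel lost without WT 0 Gy replicate 1, 2, 3 or 4 or WT 7 Gy replicate 3 or 5 and Kel alone lost without WT 7 Gy replicate 1 or 2, and 5 to 6 in Il10-/- blood, with Rhag lost.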

How the data were processed

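Whole blood RNA of 20 samples was hybridised to 1-colour Agilent mouse arrays, and the authors deposited the scanner output with processed signal intensity per spot (background subtracted by Agilent Feature Extraction, version 12.0.2.2 per the file headers and 10.7 per the labels) and a table of normalized log2 values. The file headers give probe positions on mm9. Non-uniform spots were dropped, log2 processed signals were centred on the array median, repeated spots were averaged, and probes were kept if marked as non-uniform or not above background on under 25% of arrays and at least 1.5-fold from their median on 20% or more (18587 of 39429). Each comparison was tested in limma 3.58.1 (R 4.3.3) over the arrays of its groups, and the difference between the responses over all 20 arrays. The brightest tested probe stood for a gene. P-values measure the spread between samples of 1 group, and nothing in the labels says more of their origin than their replicate numbers. The comparisons share control arrays.

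The 5 slides each held 1 array of every group and were used as a block, as an alternative, and for within-slide differences. Other alternatives were the 75th percentile, a reference array (each array shifted by its median distance from Il10-/- 0 Gy replicate 3), quantile normalization, normexp (offset 50) on mean and background intensity, the authors' table, no filters, 1 fit of all groups, a rate of 5% alone, the mean of a gene's probes and leaving out each array. Replicates 1 and 2 as 1 sample, and normexp with quantile normalization, were added after seeing the data. The fits were tested on simulated data. The number of arrays limits the precision.

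Named were all probes of the 8 members, the called genes of each list with the largest differences, and the 10 genes most like the mean member profile. Some genes of the lists that this rule names are counted but not reported here. Add1, Alas2, the globins, Sptan1, Sptbn1 and the smaller calls where a list had few were named with their values known. The members and lists were chosen with earlier results of these data known. Lists for B cells, T cells, NK cells, neutrophils and monocytes were measured beside the others. Apart from the correlations with B cell genes, they bear on no statement here. Of their tested genes, 5 of 6, 1 of 6, 0 of 5, 0 of 7 and 1 of 5 were called lower in WT blood. In Il10-/- blood these were 5 of 6, 1 of 6, 0 of 5, 0 of 7 and 2 of 5. At baseline, 4 of 7 neutrophil genes were called higher in Il10-/- blood.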

Additional observations from a re-analysis of the deposited data

Results flagged for a closer look

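In 6 of 36 groups of 5 arrays (9 probes in 4 groups), 1 array lay further from the others than Dixon's 95% limit allows, where chance gives about 1 in 20 for a single group. The 9 probes were read on the same arrays, so the 36 groups are not independent, and whether 6 exceeds chance was not tested. WT 0 Gy replicate 4 accounted for 3 of the 6 and was high in Epb4.2 (6.95, next 5.42), Rhag (4.2, next 2.80) and Rhd (8.12, next 6.58). WT 0 Gy replicate 5, the array with the fewest spots above background, was low in Spnb1 (-1.57, next -0.04). Ank1 was low on WT 7 Gy replicate 5 (1.07, next 2.21), and the second Epb4.2 probe was low on Il10-/- 0 Gy replicate 4 (3.19, next 4.00).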

How the results depend on the processing

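The calls on the responses kept their direction under every alternative run. Of 124 recomputed counts of called members, 113 stayed within 1.5 times the value given. Most of the 124 belong to comparisons with 0 members called in the main run, so this share says little of the calls on the responses. The WT counts of 3 with 1 array left out, given below, were among those that moved more. The others that moved more were those in WT blood with replicates 1 and 2 averaged (3) and with normexp followed by quantile normalization (3), both added after seeing the data, the counts in WT and Il10-/- blood with normexp alone (0 and 0), and the baseline count with the slide as a replicate block (1, Spnb1). Leaving out 1 array gave 3 to 5 calls in WT blood: 3 without WT 0 Gy replicate 1, 2, 3 or 4 or WT 7 Gy replicate 3 or 5 (Ank1 and Kel lost), and 4 without WT 7 Gy replicate 1 or 2 (Kel lost). In Il10-/- blood it gave 5 to 6, and Rhag was lost without Il10-/- 0 Gy replicate 1, 2 or 5 or Il10-/- 7 Gy replicate 1, 2, 3 or 4. After normexp, the middle 50% of the probes spanned 0.07 to 0.19 on the log2 scale on 4 arrays and 0.41 to 1.87 on the other 16, against 3.78 to 5.25 and 3.38 to 5.86 in the processed signal of the same arrays.

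Every value that turned direction was one that was not called in either setting. Without radiation, the Kel difference of 0.03 became -0.32 at the 75th percentile, -0.28 with the reference array, -0.39 with quantile normalization, -0.25 in the authors' table, -0.059 with normexp and quantile normalization and -0.10 with replicates 1 and 2 averaged. There Epb4.2 became 0.26 with normexp and 0.83 with the mean of its probes, and Rhd 0.60 with normexp. In Il10-/- blood the Spnb1 response became 0.21 with replicates 1 and 2 averaged. Between the irradiated genotypes, normexp gave -0.60 for Slc4a1, -0.22 for Ank1 and -0.15 for Aqp1, normexp with quantile normalization gave -0.036 for Ank1, and the mean of its probes gave 0.33 for Epb4.2. The difference between the responses became, for Slc4a1, 0.035 at the 75th percentile, 0.037 with the reference array, 0.010 in the authors' table and 0.039 with replicates 1 and 2 averaged. For Kel it became 0.066 at the 75th percentile, 0.068 with the reference array, 0.16 with quantile normalization and 0.041 in the authors' table. It became 0.019 for Rhd with quantile normalization, 0.16 and 0.31 for Aqp1 without and with normexp before that step, and -0.54 and -0.51 for Epb4.2 with normexp and with the mean of its probes.

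With 1 array left out, the unirradiated difference ranged from -0.24 to 0.43 for Kel, from -0.35 to 0.19 for Epb4.2 and from -0.20 to 0.32 for Rhd, and the Spnb1 response in Il10-/- blood from -0.76 to 0.23. The irradiated genotypes differed by -0.22 to 0.17 for Rhag, by -0.49 to 0.18 for Epb4.2, by -0.37 to 0.064 for Kel and by -0.084 to 0.28 for Ank1. The difference between the responses ran from -0.33 to 0.37 for Epb4.2, from -0.64 to 0.033 for Slc4a1 and from -0.59 to 0.079 for Kel.

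The replicate number is also the slide, but same-numbered arrays did not all deviate together: the mean correlation of deviations ranged from -0.13 to 0.41 over the 6 pairs of groups. With the replicate block, 5 members were called in WT blood and 5 in Il10-/- blood (Rhag lost). Spnb1 alone was called between the unirradiated genotypes, and 0 members were called in the other 2 comparisons. The causes were not tested.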
